A study of Mus musculus and Homo sapiens with 40 samples.

Results

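The genes described here are 10 human genes of the core autophagy machinery: MAP1LC3B, GABARAPL2, SQSTM1, NBR1, ATG7, ATG3, ATG5, ATG12, ATG16L1 and BECN1. They were listed by name, not by a measured value. Each was examined with 50 kb on both sides of its gene record, in the hg38 build with GENCODE annotation, for binding sites of the transcription factor ATF4. The windows held 15 sites, out of 16305 sites on the standard chromosomes. ATF4 was mapped by ChIP-seq in 1 sample of KO-52, a human acute myeloid leukemia line with mutations in both CEBPA alleles. The cells had received tunicamycin at 2 µg/mL for 4 h before crosslinking with DSG and formaldehyde, and the chromatin was compared with 1 input sample from tunicamycin-treated KO-52 cells. No untreated KO-52 sample and no second ATF4 library was analysed here, so a site cannot be related to the treatment, no value has a replicate error and no test could be made. Mouse HPC-7 progenitor cells, transduced with CEBPA p42 or p30 fused to ERT2, gave further lists that are used below for the mouse counterparts of these genes. The cells were untreated, except that 2 of the 4 H3K27ac lists came from cells given LPS (100 ng/mL, 2 h). Each of these lists comes from 1 transduced line per isoform, so line and isoform cannot be told apart. According to the study's methods such cells received hydroxytamoxifen to bring the fusion protein into the nucleus, a treatment that the sample labels do not name.

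Autophagy encloses cytoplasmic material in a double membrane and delivers it to lysosomes. Small ubiquitin-like proteins of the ATG8 family, among them LC3B and GABARAPL2, are attached to lipid on the growing membrane by a conjugation machinery resembling that of ubiquitin, and receptors such as p62 and NBR1 tie cargo to them. ATF4 is a bZIP factor whose translation increases when cells are stressed, for instance when tunicamycin blocks N-glycosylation in the endoplasmic reticulum. It pairs with other bZIP proteins, C/EBP factors included, and such pairs recognise composite elements in which a C/EBP part is joined to an ATF part. Several autophagy genes are counted among the genes that ATF4 activates under stress.

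A few sequences show what the sites of these genes look like. All are from the plus strand of hg38, and the capitals mark the element searched. The exact composite element was TGATGCAA, read on both strands (its reverse complement is TTGCATCA). A looser form with 1 free base, TGATGNAA, contains the exact one, and a form with a CpG, TGACGNAA, was added after the sites had been seen. The strongest site near any of the 10 genes, upstream of MAP1LC3B, carried the looser element at 2 places around its summit.
MAP1LC3B, chr16:87388641-87388760: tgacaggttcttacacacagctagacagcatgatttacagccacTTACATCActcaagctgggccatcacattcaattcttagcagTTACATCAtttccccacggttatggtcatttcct
The sites at the promoters of ATG7 and NBR1 are shown over 30 bases because coding transcripts start there, and both carried the form with a CpG. The NBR1 match was centred 59 bp before its summit, which lies outside the stretch shown.
ATG7, chr3:11272362-11272391: gcaggaccgcgTTGCGTCAtcggggcgcgc
NBR1, chr17:43170461-43170490: gttgcggcttaTTACGTCAcagtaattgct
The stronger site of ATG16L1 carried the exact element, and the best-ranked site of ATG5 carried 2 looser matches in the stretch shown.
ATG16L1, chr2:233343442-233343561: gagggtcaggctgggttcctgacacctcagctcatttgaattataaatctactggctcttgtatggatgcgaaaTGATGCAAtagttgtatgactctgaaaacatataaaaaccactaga
ATG5, chr6:106195139-106195258: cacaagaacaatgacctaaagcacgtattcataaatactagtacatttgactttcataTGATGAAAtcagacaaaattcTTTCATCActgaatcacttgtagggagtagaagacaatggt
For contrast, SQSTM1, ATG3 and ATG12 had no ATF4 site in their windows, although exact matches lay there. The match closest to the canonical start of each is given.
SQSTM1, chr5:179835705-179835734: ttcttatgtctTTGCATCAtcatagcttag
ATG3, chr3:112555294-112555323: acgtgttcaaaTGATGCAAgattcaaattt
ATG12, chr5:115825231-115825260: tgcacattagtTGATGCAAtttcttcatag

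Of the 10 genes, 6 had at least 1 ATF4 summit in the window (60.0%, Wilson 95% interval 31.3 to 83.2). This is near the share among all protein-coding genes, of which 11528 of 20007 (57.6%) had one, so presence in the window alone does not set these genes apart. NBR1 had 5 sites, ATG5 and ATG7 had 3 each, ATG16L1 had 2, and MAP1LC3B and GABARAPL2 had 1 each. SQSTM1, ATG3, ATG12 and BECN1 had none. A site at a promoter, defined as 1000 bp upstream to 100 bp downstream of any annotated transcript start, was present at ATG7 and NBR1, which is 2 of 10 genes (20.0%, interval 5.67 to 51.0) against 4.41% of all protein-coding genes. The intervals cover counting error over genes only, and with 10 genes they are wide.

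**Figure D1:**
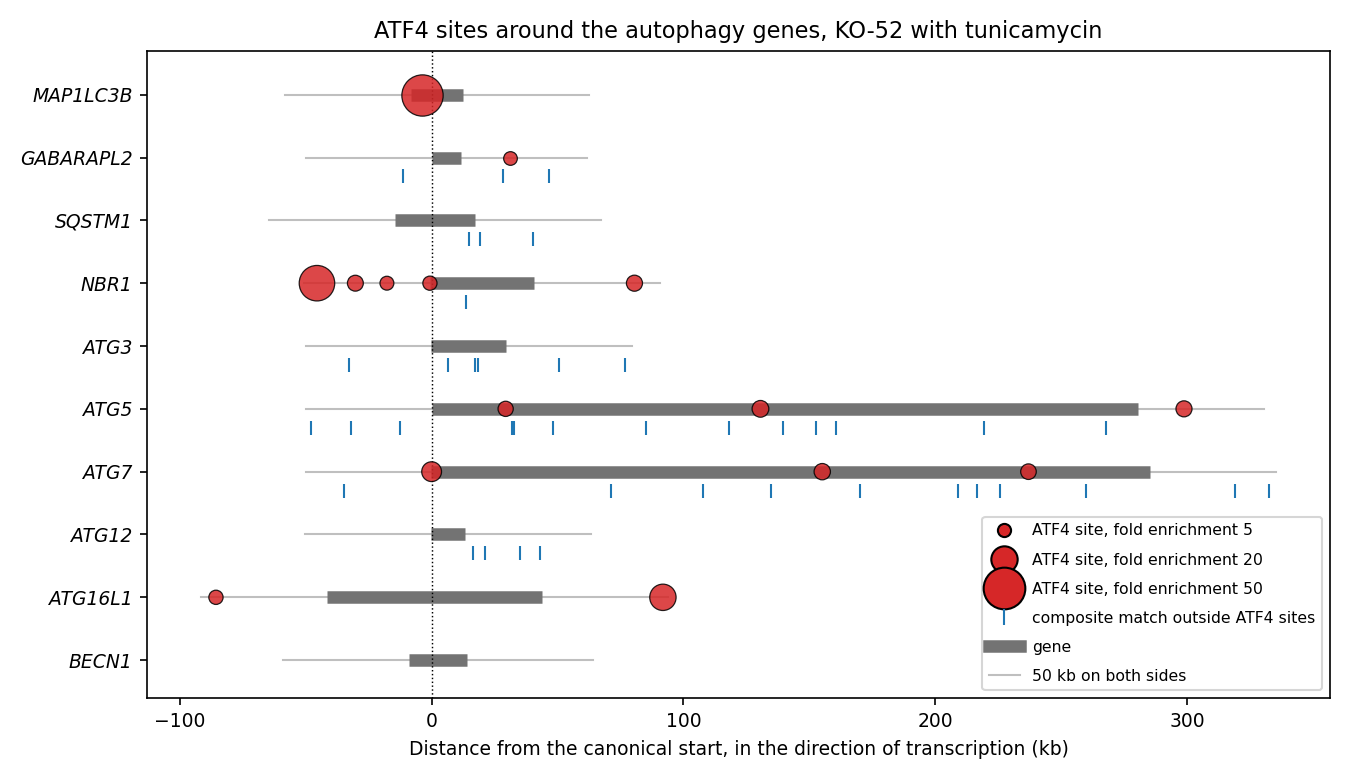
Position of ATF4 summits (circles, area in proportion to fold enrichment) relative to the canonical start of each gene, in kb along the direction of transcription. Thick bars are gene records, thin lines the 50 kb on both sides, and blue ticks exact composite matches outside ATF4 sites. The largest circles lie next to the MAP1LC3B start and at the upstream edge of the NBR1 window, and 4 genes carry no circle.

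Among the ATG8 family genes, MAP1LC3B stood out by the strength of its site. MAP1LC3B encodes LC3B, the lipidated protein most used to follow autophagosomes. Its site at chr16:87388560-87388875 was 316 bp wide and ranked 192 of 16305 by p-value, within the first 1.18% of the list. Fold enrichment at the summit was 49.1 and the −log10 of the q-value was 155. The summit lay 3635 bp upstream of the canonical start, inside the MAP1LC3B record, which has longer transcripts, and within an exon of a noncoding transcript of FBXO31 on the other strand. No canonical start of another protein-coding gene was closer than that of MAP1LC3B. Of all protein-coding genes, 61 (0.305%) had a site of this rank or better within 5 kb of their canonical start, a distance chosen after this site was seen. The matches shown above were centred 12 bp before and 30 bp after the summit and both read TGATGTAA in the direction of the element.

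GABARAPL2, an ATG8 protein of the GABARAP branch, had 1 weak site. It was at chr16:75597546-75597704, 159 bp wide, with a fold enrichment of 5.38 and rank 14563. Its summit was 31192 bp downstream of the canonical start and past the end of the gene, in an exon of ADAT1. The canonical start of ADAT1 was the nearest canonical one. A looser match, TGATGAAA, was centred 49 bp from the summit. The 2 members of the family therefore lay at opposite ends of the list.

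The cargo receptors differed in number of sites. SQSTM1 encodes p62, which binds ubiquitinated cargo and LC3, and its window of 131681 bp held no site. The nearest ATF4 summit was 230952 bp from its canonical start, with fold enrichment 5.68 and rank 10564, and 90.8% of protein-coding genes had a nearer one. The window held 3 exact composite matches, none of them in an ATF4 site.

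NBR1 encodes a receptor that, like p62, binds ubiquitin and ATG8 proteins. Its promoter site at chr17:43170434-43170589 was weak and had the smallest width in the list, 156 bp, with a fold enrichment of 5.80, a −log10 q-value of 6.57 and rank 12488. The summit was 679 bp upstream of the canonical start and 41 bp downstream of another NBR1 start. The strongest site of the window was 647 bp wide, ranked 368 and had a fold enrichment of 36.3. It was 45536 bp upstream of NBR1, near the outer limit of the window, and sat 314 bp upstream of the start of a neighbouring protein-coding gene. The 200 bp around that summit aligned with the NBR1 promoter region at 184 of 200 bases (92.0%), so the stretches are near copies. The strong site held TTGCATCA, the exact element, and the weak one at NBR1 held TTACGTCA. Reads from near copies can be placed at either, and the NBR1 promoter site is uncertain for this reason. According to the study's methods Bowtie2 was left at its default reporting, which keeps a single placement per read, and no filter on unique placement is named. The part of this in these values was not tested.

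The other NBR1 sites were not at its promoter. One at chr17:43251653-43251835, in an intron of CCDC200 80530 bp downstream of the canonical start, ranked 3183. Its fold enrichment was 7.44, below that of the ATG7 promoter site (11.3), which ranked 3633. One at chr17:43140869-43141056, 30288 bp upstream, ranked 9864 with a fold enrichment of 7.28. The remaining site ranked 13732 and lay 17760 bp upstream.

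Within the conjugation machinery, the gene for the enzyme that starts both conjugation reactions carried a promoter site. ATG7 encodes this E1-like enzyme. Its promoter site at chr3:11272276-11272523 had its summit 8 bp upstream of the canonical start, closer than in all but 0.045% of protein-coding genes. It was 248 bp wide, with a fold enrichment of 11.3, a −log10 q-value of 24.0 and rank 3633, in the first 22.3% of the list. The match TTGCGTCA was centred 12 bp before the summit. A site of this rank or better lay within 1 kb of the canonical start in 1.03% of protein-coding genes. The rank limit was this site's own and the distance was set for this gene, so the share is a description only. Both other ATG7 sites were in introns, 155099 and 236984 bp downstream of the start, at chr3:11427411-11427638 (rank 8191, fold enrichment 7.68) and chr3:11509236-11509460 (rank 10799, fold enrichment 7.0). Each of these carried the exact composite element, centred 8 and 7 bp from the summit.

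ATG5 and ATG16L1, which with ATG12 form the E3-like complex that directs lipidation, had sites only far from their canonical starts. The ATG5 sites ranked 5826, 8306 and 11281, with fold enrichments of 8.07, 7.41 and 6.67. The site ranked 5826 was at chr6:106195040-106195405, inside the gene 130561 bp downstream of its start. The site ranked 8306 was at chr6:106026906-106027141, beyond the end of the gene in an intron of PRDM1. The site ranked 11281 was at chr6:106296323-106296497, inside the gene 29384 bp downstream of its start. The ATG5 promoter held a perfect CRE, TGACGTCA, centred 56 bp upstream of the start, without an ATF4 site over it.
ATG5 promoter, chr6:106325801-106325830: gcgcccggagaTGACGTCAcgagaccccac
This palindrome was found in the 300 bp promoter, from 250 bp before to 50 bp after the start, of 2.69% of protein-coding genes. In windows of 200 bp, it was found around 2.02% of all protein-coding starts and 0.936% of the ATF4 summits at promoters.

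The best site of ATG16L1, at chr2:233343341-233343675, ranked 947 with a fold enrichment of 20.0 and a width of 335 bp. It was 91829 bp downstream of the canonical start, beyond the end of the gene, within the SAG gene at one of its annotated starts, and DGKD had the nearest canonical start. The other ATG16L1 site, at chr2:233165987-233166154 in an intron of INPP5D, ranked 11866 with a fold enrichment of 5.85. Neither ATG12, the ubiquitin-like partner of ATG5, nor ATG3, the E2-like enzyme that passes ATG8 proteins to lipid, had a site in the window. Their nearest summits lay 161175 and 69489 bp from the canonical start, with ranks of 8754 and 8700 and a fold enrichment of 8.08 each. ATG3 had 6 and ATG12 had 4 exact composite matches in the window, all outside ATF4 sites.

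BECN1, a subunit of the lipid kinase complex that marks the membrane where autophagosomes form, had neither a site nor an exact composite match in its window. Its nearest summit was 87230 bp from the canonical start and ranked 11842. The 50 kb limit divided the genes as follows: the downstream ATG16L1 site, 47828 bp from the gene record, was just inside it, and the nearest sites left outside were 69405 bp from ATG3 and 73082 bp from BECN1.

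**Figure D2:**
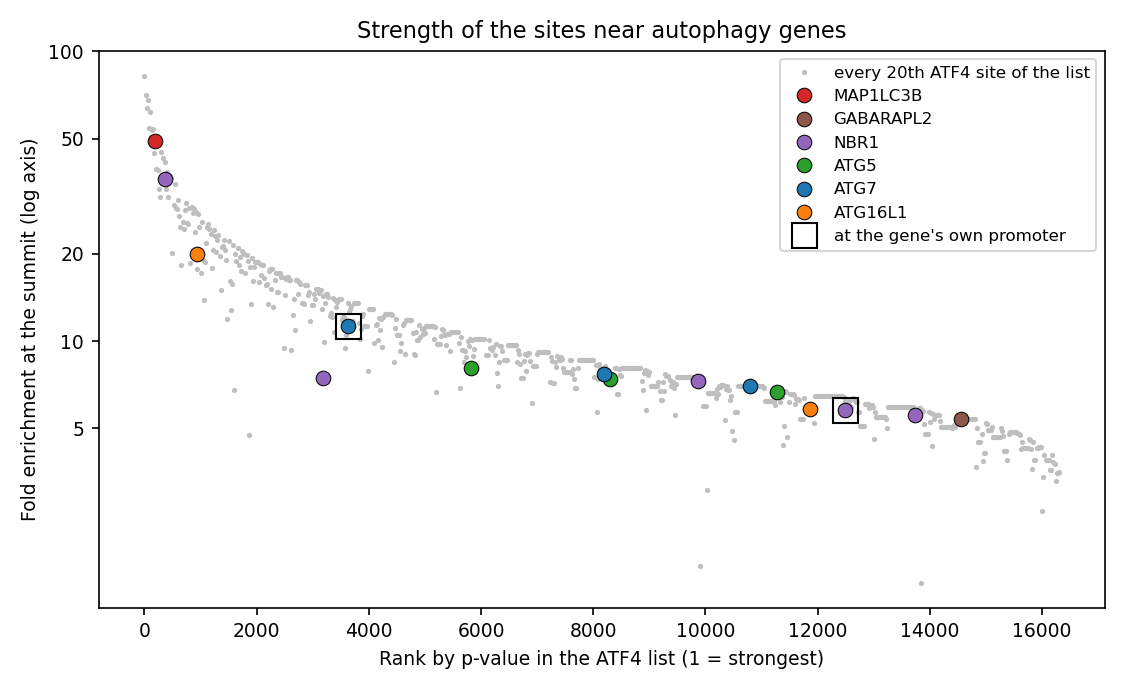
Fold enrichment at the summit (log axis) against rank by p-value, with every 20th site of the list in grey and the 15 sites near the autophagy genes in color; squares mark sites at the gene's own promoter. MAP1LC3B (rank 192) and NBR1 (rank 368) are at the strong end, and the promoter sites of ATG7 and NBR1 rank 3633 and 12488.

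As a group, the 15 sites were ordinary in strength. Their median width was 225 bp and their median fold enrichment 7.41, beside 229 bp and 7.81 over the whole list. Of the 15, 6 ranked above the middle of the list and 3 in its strongest 10%. Windows of the 10 genes held 8.23 sites per Mb, beside 6.32 per Mb over the windows of all protein-coding genes and 5.55 per Mb over the standard chromosomes, and the NBR1 window alone contributed 5 of the 15. By place, 4 summits were in promoters of any protein-coding gene, 2 in exons, 9 in introns and 0 between genes, whereas 50.9% of all sites lay between genes. The windows were chosen around genes, which bears on this last share. For 7 of the 15 sites the closest canonical start was that of the autophagy gene itself, and for 8 it was another gene's.

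The share of genes with a site rose with window length over all protein-coding genes. Protein-coding genes were divided into 5 equal classes by window length. In the class with the longest windows, which holds ATG5 and ATG7, 78.5% had a site. In the class of intermediate length, with MAP1LC3B, SQSTM1, ATG3 and BECN1, the share was 54.7%, and 1 of these 4 genes had a site. It was 61.7% in the next longer class, with NBR1 and ATG16L1, and 48.5% in the next shorter one, with GABARAPL2 and ATG12.

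**Figure D3:**
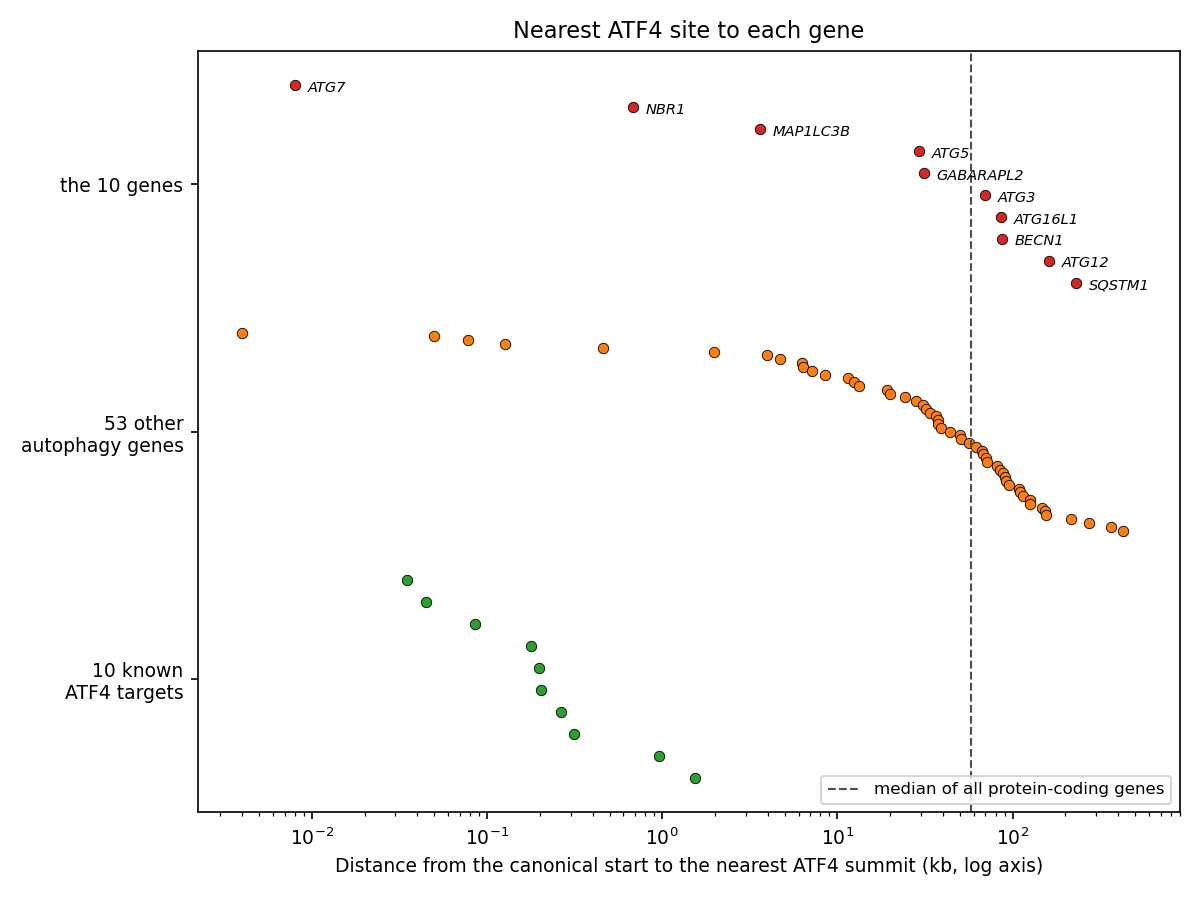
Distance from the canonical start to the nearest ATF4 summit (kb, log axis) for each of the 10 genes, 53 other autophagy genes and 10 known ATF4 targets, with the median of all protein-coding genes as a dashed line. ATG7, NBR1 and MAP1LC3B lie within 5 kb of a summit, as do 8 of the 53 other autophagy genes, all 10 known targets and 8.75% of all protein-coding genes. SQSTM1 is the farthest of the 10 genes.

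Known targets of ATF4 gave a reference for what bound promoters look like in this list. Of 10 such genes from textbook knowledge, 10 had a promoter site, against 4.41% of all protein-coding genes. The 10 targets were chosen with earlier results of these data known, so this count is a description only. Their median distance from the canonical start to the nearest summit was 201 bp. For the 10 autophagy genes this median was 50340.5 bp, beside 57680 bp over all protein-coding genes. The best reference site was that of CHAC1, a glutathione-degrading enzyme induced by ATF4, with rank 4, fold enrichment 87.7 and a summit 265 bp upstream of the start. The lowest was STC2, a secreted stress-induced glycoprotein, whose best site in the window ranked 14728 and lay 5769 bp upstream, outside the promoter. Its promoter site was another one, with rank 16107 and a fold enrichment of 3.9. That site lay at a different annotated start, 1545 bp downstream of the canonical one. The MAP1LC3B site, unlike the promoter sites of these genes, lay outside the promoter as defined here.

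**Figure D4:**
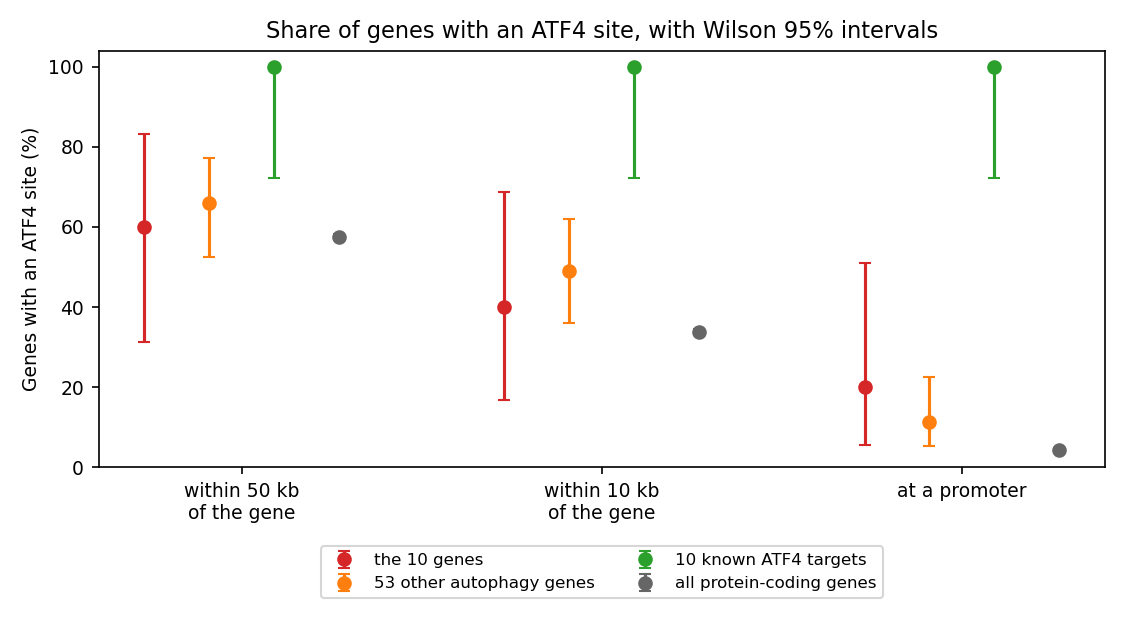
Share of genes with an ATF4 site within 50 kb, within 10 kb and at a promoter (%), with Wilson 95% intervals that cover counting error over genes only. The 10 genes sit at 60.0%, 40.0% and 20.0%, near the other autophagy genes (66.0%, 49.1% and 11.3%), and the known targets are at 100% in all 3.

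Sites were also counted at the rest of the autophagy pathway. Of 53 other autophagy genes, 35 (66.0%, interval 52.6 to 77.3) had a site in the window and 6 (11.3%, interval 5.29 to 22.6) had one at a promoter, against 57.6% and 4.41% of all protein-coding genes. By role, a window site was present in 4 of 5 initiation kinase genes, 4 of 6 lipid kinase genes, 6 of 9 membrane supply genes, 5 of 6 conjugation genes, 1 of 3 ATG8 family genes, 6 of 11 receptors, 6 of 9 fusion and lysosome genes and 3 of 4 transcription factor genes. The promoter sites were at TMEM41B, a lipid scramblase (rank 3694), RAB7A, a GTPase of late endosomes (rank 5176), TAX1BP1 (rank 11209) and CALCOCO2 (rank 11708), which are cargo receptors, ATG16L2, a paralog of ATG16L1 (rank 11309), and PIK3R4, a lipid kinase subunit (rank 15583). None of them reached the strength of the MAP1LC3B site. The CALCOCO2 and ATG16L2 promoter sites lay at other annotated starts, 25085 and 1985 bp downstream of the canonical ones. A stronger CALCOCO2 site, with rank 5377, was 461 bp downstream of the canonical start and outside the promoter as defined here.

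The strongest site of each of the following genes was not at its own promoter. CCPG1, a receptor for autophagy of the endoplasmic reticulum, had the best one, with rank 40, fold enrichment 64.7 and a summit 4707 bp downstream of its start, inside the gene. ATG10, the E2-like enzyme for ATG12, followed with rank 404, PIK3C3, the catalytic lipid kinase, with rank 592, ATG16L2 with rank 697 and WIPI1, which binds the lipid that this kinase makes, with rank 797. Of these 4, the sites of ATG10 and PIK3C3 were 343095 and 158848 bp downstream of the canonical start, and that of WIPI1 was 3981 bp upstream.

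The exact composite element was present within 100 bp of the summit in 5 of the 15 sites (33.3%, interval 15.2 to 58.3), beside 65.3% of the other 16290 sites and 0.767% of windows 5 kb away. These 5 were the strong ATG16L1 site, both intronic ATG7 sites, the distal ATG5 site and the strong site upstream of NBR1. With the looser form the count was 11 of 15 (73.3%), beside 86.4% of the other sites and 4.22% of windows 5 kb away. With all sites in 5 equal classes of rank, the 15 sites numbered 4, 2, 2, 5 and 2 from the strongest class to the weakest. In the same order, 2, 0, 2, 1 and 0 of these held the exact element. Over all sites of each class the shares were 76.7%, 73.4%, 67.4%, 59.2% and 49.4%. A C/EBP palindrome-like sequence, TTGCNNAA, was present in 0 of the 15 sites (interval 0.0 to 20.4). It was present in 14.6% of the other sites and in 10.3% of windows 5 kb away. An AP-1 element, TGANTCA, was within 100 bp of the MAP1LC3B summit and of 1 ATG5 summit, which is 2 of 15 sites (13.3%, interval 3.74 to 37.9), near the 8.38% of the other sites and 6.3% of windows 5 kb away.

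Both member promoter sites lacked TGATGNAA and held TGACGNAA. The 300 bp promoter of ATG5, which had no ATF4 promoter site, held TGACGNAA too. This form was present in the 300 bp promoter of 2 of the 10 genes, beside 2.11% of all protein-coding promoters. Over 1100 bp of promoter it was present in 3 of the 10, beside 4.35%. In the whole list the form with a CpG was present in 113 of 855 promoter sites (13.2%) and in 2.21% of sites outside promoters, while it was present around 1.29% of all protein-coding starts. Among the other 6 autophagy promoter sites it was present at TAX1BP1 and RAB7A, which makes 4 of 8 in all, and the exact composite was present in 0 of these 8. Among the 10 promoter sites of the known targets, 6 held the exact composite and 9 the looser form. Of all promoter sites, 42.2% held the exact composite. With the 2 forms together, 13 of the 15 sites had an element, beside 88.6% of the other sites. The form with a CpG was chosen after these sites were seen, so its counts at the 8 promoter sites and at the promoters of the 10 genes are a description only.

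**Figure D5:**
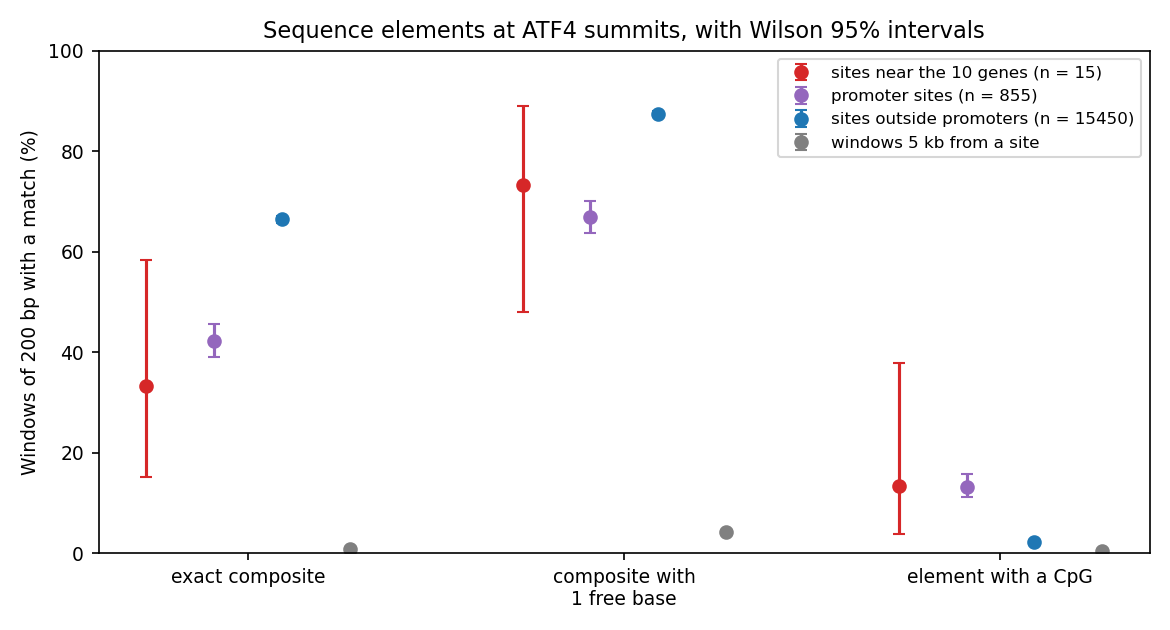
Share of 200 bp windows around ATF4 summits with each sequence element (%), with Wilson 95% intervals, for the 15 sites near the 10 genes, all promoter sites, all sites outside promoters and windows 5 kb from a site. The exact composite is at 33.3% in the 15 sites and 66.5% outside promoters, and the element with a CpG is at 13.3% in the 15 sites, 13.2% at promoters and 2.21% outside them.

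Most exact composite matches near the autophagy genes were not in an ATF4 site. The 10 windows held 46 matches, of which 5 (10.9%) lay inside sites, beside 9.99% of 110390 matches over the standard chromosomes. In the windows of the 53 other autophagy genes 38 of 266 (14.3%) were inside sites, and in those of the known targets 19 of 57 (33.3%). ATG5 had 14 matches with 1 in a site, ATG7 had 13 with 2, and the 4 genes without a site had 13 matches in all. No 300 bp promoter of the 10 genes held TGATGNAA, which 2.49% of all protein-coding promoters did.

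The mouse counterparts were looked at in HPC-7 cells. H3K27ac, a mark of active promoters and enhancers, covered the promoter of 10 of 10 genes in each of the 4 lists, each called on 3 pooled samples. Among all mouse protein-coding genes the share was 52.7% in untreated p42 cells, 52.2% in p42 cells with LPS at 100 ng/mL for 2 h, 52.4% in untreated p30 cells and 53.7% in p30 cells with LPS. The best promoter peak of every gene ranked within the first 5.29% of its list, with Atg16l1 or Atg12 highest. Ranks of promoter peaks at other genes were not computed, so these ranks do not set the 10 genes apart. Lists were pooled before calling and differ in size, so no difference between them was drawn.

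CEBPA sites within 50 kb were common around these genes, as around most genes. With the antibody against CEBPA, 10 of 10 had a site in untreated p42 cells and 9 of 10 in untreated p30 cells, against 86.7% and 79.6% of all genes. With the anti-ER antibody, which recognises the other portion of each fusion protein, the count was 9 of 10 in both, against 70.5% in p42 and 79.6% in p30 cells. Gabarapl2 was the gene without a site in the latter 3 lists, and its single site with anti-CEBPA in p42 cells was weak, with rank 31538 of 47517. At promoters, anti-CEBPA sites were present at 3 of 10 genes in p42 cells and 5 of 10 in p30 cells, against 10.0% and 9.09% of all genes, and anti-ER sites at 1 of 10 in p42 and 4 of 10 in p30 cells, against 8.74% and 13.6%. A site at the Atg16l1 promoter, the gene found so in every list, was present in all 4 lists, with its summit within 4 bp of the canonical start and fold enrichments of 6.16 to 13.6. Each of these lists came from 1 library, and the number of reads behind any list is unknown from the peak lists.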

How the data were processed

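ChIP-seq peak lists of KO-52 (ATF4) and HPC-7 cells (H3K27ac, anti-CEBPA, anti-ER) were used, and H3K4me1 lists were not used here. The authors trimmed reads with Trim Galore 0.6.6, aligned them with Bowtie2 to hg38 or mm39, excluded duplicates marked by Picard and called peaks with MACS2 against input. H3K27ac lists came from pooled replicates and the others from 1 library each. Each deposited list gives a fold enrichment (a ratio over local background), with p-value and q-value as −log10, down to a q-value of about 0.05. Coverage and depth are unknown from these lists.

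Peaks on standard chromosomes were ranked by p-value within their list (Python 3.11.15, pandas 2.3.3). Summits were counted against GENCODE gene records (human release 44). Elements were searched on both strands in 200 bp around summits. Shares have Wilson 95% intervals. All 10 genes were described with all their sites. Of the other genes, those with a promoter site and the 5 best-ranked were named, and of the known targets the best and worst. The genes, lists and elements were chosen with earlier results of these data known. On simulated data, all 200 windows and 500 planted elements were recovered. Alternatives were other windows, promoters, q-values and elements.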

Additional observations from a re-analysis of the deposited data

How the results depend on the processing

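Of 57 alternative counts, 49 stayed within 1.5 times the reported one. Many could hardly move: mouse H3K27ac counts were 10 of 10 throughout, and known targets with a site were 9 or 10 of 10. A fall from 6 to 4 genes still counted as within the limit. The tally is therefore no measure of how stable the results are. Genes with a site numbered 4 to 8 of 10 across the alternatives: 4 within 10 kb (33.9% of all protein-coding genes), 8 within 100 kb (75.2%), and 4 with the strongest 5000 peaks (26.4%). The 15 sites became 7 within 10 kb, 8 within 50 kb of the canonical start, 5 with the strongest 5000 peaks and 7 where the nearest start had to be the gene's own. With the strongest 5000 peaks, genes with a promoter site fell to 1, since NBR1 ranks lower, and other autophagy genes with a site to 15. The exact composite in 5 sites became 11 with 1 free base and 13 with the form with a CpG added, the latter an alternative chosen after seeing the data. Mouse counts stayed between 8 and 10 of 10 genes. No paired analysis was possible because no test was made: each list is 1 library or pooled replicates, which also kept single replicates from being left out.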
